A study of Mus musculus with 6 samples.

Results

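Collagens, the matrix metalloproteinases (Mmp), the proteases of the Adamts family and the tissue inhibitors of metalloproteinases (Timp) were examined in the hepatic RNA-seq table of the study. The members were all genes of the table whose symbol names a collagen chain, an Mmp, a Timp or an Adamts protease, which gave 90 of 24421 genes. They were 44 collagen chains, 23 Mmps, 4 Timps and 19 Adamts genes, and these are also all 90 such symbols of the mouse annotation used here (GENCODE M21). The libraries came from the livers of 3 WT mice and 3 *Pai-1*+/- mice, which are heterozygous for the targeted allele. By the labels all were C57BL/6 mice with an age of 21 weeks. They were fed standard chow freely and given no drug. The males are named as such in the labels of the WT libraries only, and the paper's text describes both genotypes as male littermates of a slightly younger age. The allele is carried in every cell of the body, so no cell type was targeted.

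The measure throughout was the mean normalized count, which is a gene's read count divided by a size factor for each library and averaged over the libraries of both genotypes. Values of single animals were not used, because the animal numbers heading the count columns match no sample label. No spread between animals is given for any level, and no difference between WT and *Pai-1*+/- livers was measured or tested. The smallest values of the table showed that 1 read added on average 0.166 to the mean, so that a mean of 10 stands for about 60 reads over the 6 libraries. Intervals on levels, given for members above 0, are exact 95% Poisson intervals on those reads. Intervals on ratios are exact 95% binomial intervals on the reads of both genes, scaled by exon length. Both kinds cover counting error only.

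Collagens are triple-helical proteins that build the fibrils, networks and basement membranes of the extracellular matrix. Mmps and Adamts proteases are zinc enzymes that cut matrix proteins, and Timps block their active sites. In a healthy liver most matrix lies around the portal tracts and vessels and as a thin layer in the space of Disse, and in fibrosis stellate cells turn into myofibroblasts that make fibrillar collagen. Plasmin, which the plasminogen activators release from plasminogen, can itself activate several proMmps.

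The promoter sequences of the members are of several kinds. A few are shown from higher members and from the Mmp cluster of chromosome 9, where mean normalized counts ran from 0 (*Mmp1a*) to 20.9 (*Mmp27*). They are RefSeq sequences of GRCm38.p6, the mm10 build that the authors aligned to, printed 5′ to 3′ on the strand of the gene and ending just before the annotated start or before the first annotated exon base. Capitals mark promoter elements and a site for the AP-1 factors, each searched on both strands. The TATA box, which positions the polymerase at many tightly regulated genes, was searched as TATAAA. The GC box, a binding site of Sp1 that is frequent in promoters rich in CG, was searched as GGGCGG. The CCAAT box was searched by the letters of its name, and in *Mmp14* it overlaps a GC box. The AP-1 element, long known from Mmp promoters, was added to the search after the sequences had been seen, as TGAGTCA.
The highest collagen was *Col18a1*, at the more distal of its 2 listed starts (chr10:77166549-77166630, minus strand).
Col18a1: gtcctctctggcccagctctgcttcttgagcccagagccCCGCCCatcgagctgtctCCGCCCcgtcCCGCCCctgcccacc
The highest fibrillar collagen was *Col5a3* (chr9:20815068-20815167, minus strand).
Col5a3: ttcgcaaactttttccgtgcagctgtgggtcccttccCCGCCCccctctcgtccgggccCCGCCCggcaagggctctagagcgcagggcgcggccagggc
*Col3a1* forms the fibrils of reticulin (chr1:45311438-45311537, plus strand).
Col3a1: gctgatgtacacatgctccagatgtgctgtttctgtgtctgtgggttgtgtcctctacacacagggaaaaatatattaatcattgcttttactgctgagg
*Mmp14* was the highest membrane-type Mmp (chr14:54431498-54431597, plus strand).
Mmp14: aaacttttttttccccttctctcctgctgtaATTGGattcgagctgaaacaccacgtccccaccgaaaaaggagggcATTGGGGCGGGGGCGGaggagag
*Adamts1* was the highest Adamts gene (chr16:85803114-85803213, minus strand).
Adamts1: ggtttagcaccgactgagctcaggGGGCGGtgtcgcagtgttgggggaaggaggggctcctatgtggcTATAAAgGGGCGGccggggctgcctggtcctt
The last 6 belong to the Mmp cluster of chromosome 9, on the plus strand, at chr9:7272414-7272513 (*Mmp13*), chr9:7445722-7445821 (*Mmp3*), chr9:7464041-7464140 (*Mmp1a*), chr9:7502242-7502341 (*Mmp10*), chr9:7571296-7571395 (*Mmp27*) and chr9:7691990-7692089 (*Mmp7*).
Mmp13: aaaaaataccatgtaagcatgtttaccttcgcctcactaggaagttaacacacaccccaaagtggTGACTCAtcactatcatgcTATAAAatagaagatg
Mmp3: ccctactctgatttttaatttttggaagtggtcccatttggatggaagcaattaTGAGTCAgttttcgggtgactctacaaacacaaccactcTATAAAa
Mmp1a: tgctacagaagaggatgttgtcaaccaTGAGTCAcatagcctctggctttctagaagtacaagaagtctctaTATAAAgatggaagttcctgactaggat
Mmp10: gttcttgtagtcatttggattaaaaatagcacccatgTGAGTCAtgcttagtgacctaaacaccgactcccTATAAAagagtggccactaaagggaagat
Mmp27: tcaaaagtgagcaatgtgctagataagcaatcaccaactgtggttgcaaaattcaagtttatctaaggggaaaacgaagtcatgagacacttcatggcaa
Mmp7: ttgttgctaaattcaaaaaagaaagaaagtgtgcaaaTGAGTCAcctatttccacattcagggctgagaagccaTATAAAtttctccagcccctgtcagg
The windows printed for *Col18a1*, *Col5a3*, *Mmp14* and *Adamts1* held GC boxes, in *Adamts1* beside a TATA box. That of *Col3a1* held no marked motif, and those printed for the cluster genes held no GC box. The printed windows are examples and show no link between motif and level, and shares over all listed windows are given further below. The other listed start of *Col18a1* had none of these motifs in the 100 bases before it, and which start is used in liver was not measured. *Mmp13*, *Mmp3*, *Mmp1a*, *Mmp10* and *Mmp7* each carried the element TGAGTCA upstream of a TATA box, and *Mmp27* carried neither.

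At a mean normalized count of at least 10, 51 of the 90 members (56.7%) were measurable in liver, beside 53.1% of all genes of the table. The share among members was therefore near that of all genes. By family, 28 of 44 collagen chains, 11 of 23 Mmps, 2 of 4 Timps and 10 of 19 Adamts genes reached this level. Another 31 members had reads but stayed below it, and 8 were at 0, namely *Col9a1*, *Col26a1*, *Mmp1a*, *Mmp1b*, *Mmp20*, *Mmp21*, *Adamts18* and *Adamts20*. For these 8 a limit is given in place of an interval, since a count of 0 allows up to 3 reads over the 6 libraries, or a mean normalized count of up to 0.545. Just above the threshold lay *Col7a1* (11.2), *Col4a4* (12.8) and *Col23a1* (13.0), and just below it *Col24a1* (9.26), *Col4a6* (8.92) and *Adamts3* (8.91). For 5 members, 1 above and 4 below, the counting interval held the threshold itself.

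**Figure D1:**
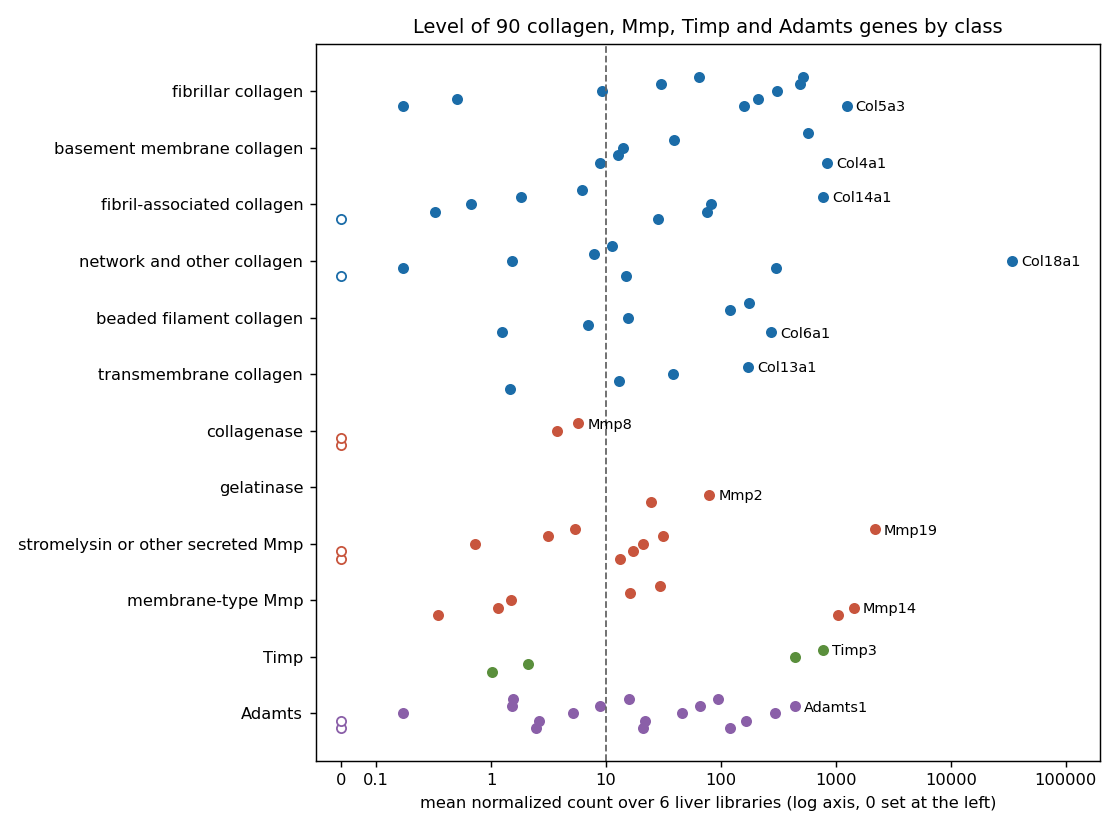
Mean normalized count over the 6 libraries (log axis) of each of the 90 members, 1 point a gene, in rows by class, with open points at 0, the highest member of each class named and a dashed line at 10. Col18a1 stands far to the right at 34293, no collagenase reaches the line, and both gelatinases do.

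The members were mostly genes of low or middle level. Few were silent, since 8.89% were at 0 beside 27.6% of all genes, and few were abundant, since 5.56% reached 1000 beside 16.0% of all genes. The band from 1 to under 10 held 25.6% of the members and 10.6% of all genes, and the band from 10 to under 100 held 30% of the members and 12.8% of all genes. The median over all 90 members was 15.1, and over all genes 18.5. These shares describe levels and carry no test.

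**Figure D2:**
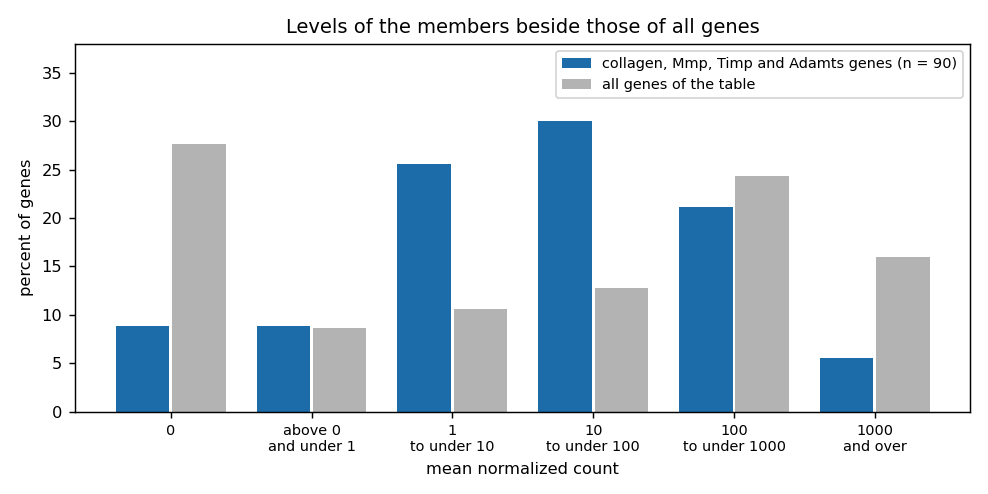
Percent of the 90 members (dark bars) and of all 24421 genes (light bars) in each band of mean normalized count. The members crowd into the bands from 1 to under 100, and all genes are more often at 0 or at 1000 and over.

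To compare genes with each other, the mean was divided by the length of the gene's annotated exons joined together, giving normalized counts per kilobase. On this scale the 90 members summed to 7329, and *Col18a1* alone held 66.6% of the sum. *Mmp19*, *Mmp14*, *Mmp15* and *Col5a3* followed, and these with *Col18a1* held 83.5%. In counts not divided by length, all members together made up 0.161% of the table's total, and without *Col18a1* they made up 0.0468%. The length chosen matters for some genes, and where the longest transcript in place of the joined exons moves a ratio by more than 1.5 times or turns it, that value is given beside it.

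**Figure D3:**
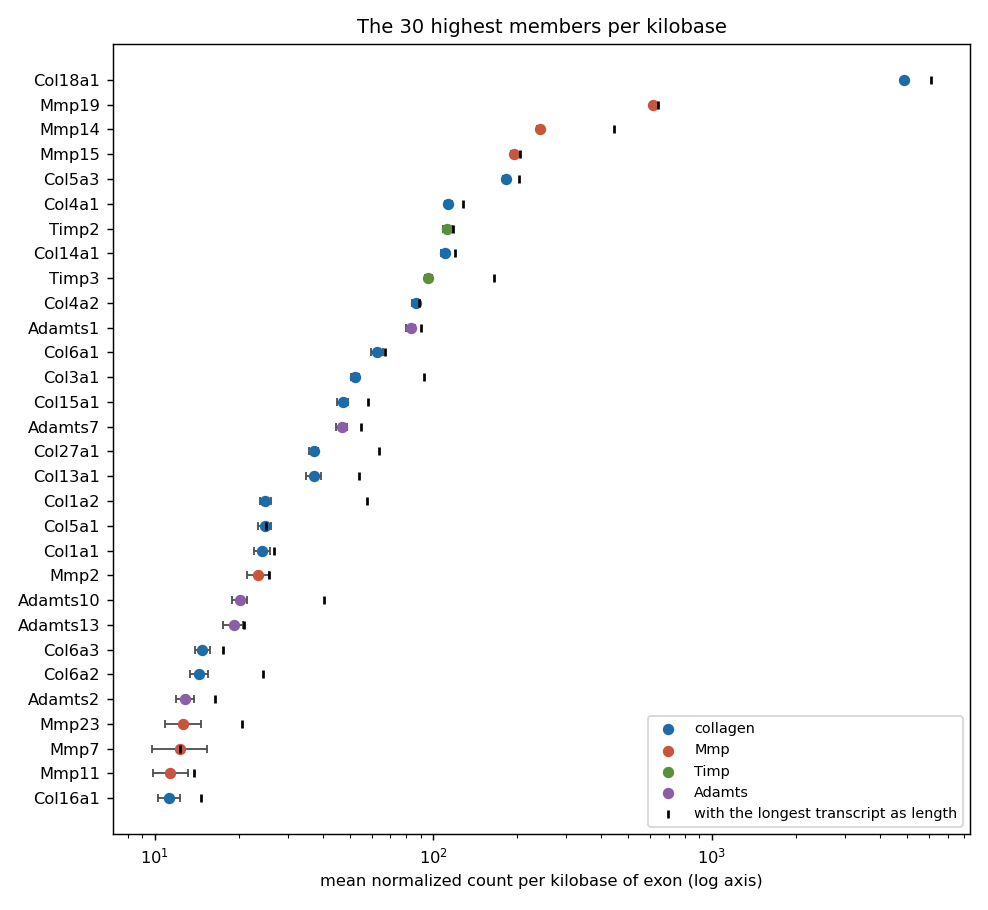
Normalized counts per kilobase of exon (log axis) of the 30 highest members, coloured by family, with bars for 95% counting intervals and black ticks for the value with the longest transcript as length. Col18a1 (4884) lies far above Mmp19 (615), and below it the families are interleaved.

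Among the fibrillar collagens, which form the banded fibrils that give tissue its tensile strength, 8 of 11 were measurable. The highest was *Col5a3*, a chain of type V collagen, with a mean normalized count of 1240 (1212 to 1269). *Col3a1*, the chain of the type III fibrils that form reticulin, had 513 (495 to 531). *Col27a1* had 484, *Col1a2* 310, *Col5a1* 210, *Col1a1* 159, *Col5a2* 64.6 and *Col11a2* 30.3. The other chains were scarce, with *Col24a1* at 9.26 and the cartilage chains *Col2a1* and *Col11a1* at 0.504, from about 3 reads, and 0.172, from 1 read.

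Type I collagen is built from *Col1a1* and *Col1a2* chains, and their ratio per kilobase was 0.972 (0.898 to 1.05) with joined exons but 0.463 with the longest transcripts, so the size of the difference rests on the length chosen. *Col3a1* was higher than both per kilobase, by 2.15 times over *Col1a1* (3.43 with the longest transcripts) and by 2.09 times over *Col1a2* (1.59). In type V collagen, *Col5a3* was 7.35 times (6.92 to 7.81) as high per kilobase as *Col5a1*, and *Col5a1* was 3.68 times (3.28 to 4.13) as high as *Col5a2*. The level of *Col5a3* was also above that of both type I chains, at 182 per kilobase beside 24.3 for *Col1a1* and 24.95 for *Col1a2*. With the longest transcripts these levels were 203, 26.8 and 58.0.

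**Figure D4:**
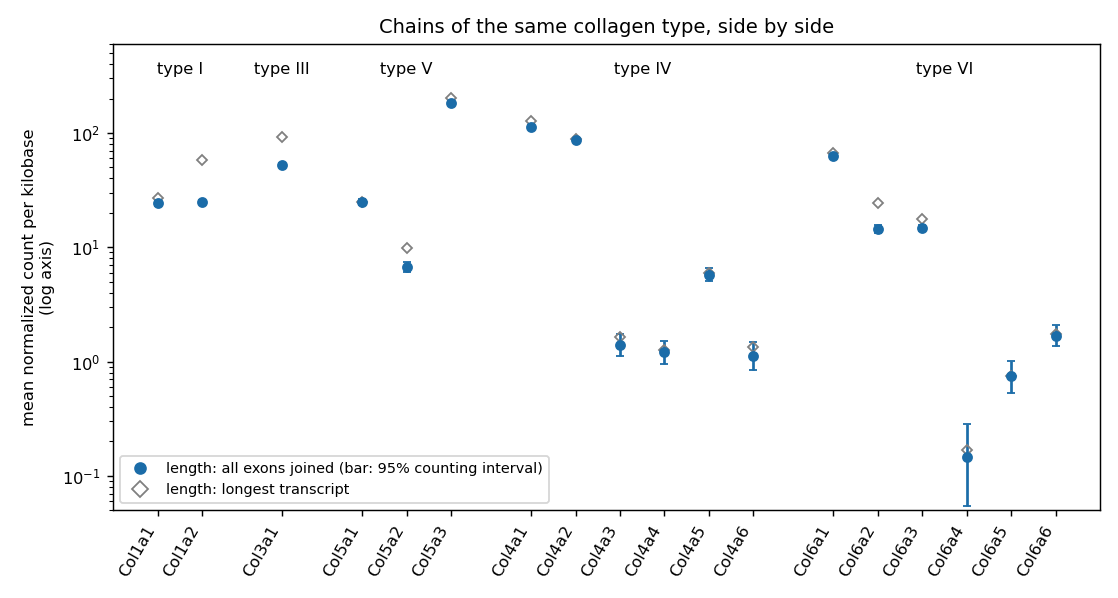
Normalized counts per kilobase (log axis) of the chains of collagen types I, III, V, IV and VI, with filled points for joined exons, bars for 95% counting intervals and open diamonds for the longest transcript. Col5a3 (182) is the highest, Col4a1 and Col4a2 stand far above the other type IV chains, and Col6a1 stands above its partners.

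The basement membrane collagens are the 6 chains of type IV, which assemble into the sheet under epithelia and vessels. Of these, 5 were measurable. *Col4a1* (843, 820 to 867) and *Col4a2* (571, 552 to 591), the chains present in nearly every basement membrane, were far above the rest. *Col4a5* had 38.8, *Col4a3* 13.9, *Col4a4* 12.8 and *Col4a6* 8.92. Per kilobase, *Col4a1* was 1.31 times (1.25 to 1.37) *Col4a2* and 19.6 times *Col4a5*. Type IV genes lie in head-to-head pairs, so that the partners are read away from a shared stretch of DNA. The annotated starts of *Col4a1* and *Col4a2* lay 21 bases apart on chromosome 8 and the genes overlapped by 22 bases. *Col4a3* and *Col4a4* were separated by 71 bases on chromosome 1, and their ratio per kilobase was 1.16 (0.842 to 1.60). Exons of *Col4a3* share 563 bases, 5.65% of their length, with *C430014B12Rik* on the other strand. On the X chromosome, with 1308 bases between the genes, *Col4a5* was 5.16 times (3.79 to 7.02) as high per kilobase as *Col4a6*.

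Of the fibril-associated collagens, which sit on the surface of fibrils, 4 of 9 were measurable, led by *Col14a1* at 771. *Col12a1* had 82.5, *Col16a1* 76.0 and *Col20a1* 28.3. Of the type IX chains of cartilage, *Col9a1* was at 0, *Col9a2* at 0.667 and *Col9a3* at 6.23.

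The network-forming and other collagens held the highest member of all. *Col18a1*, whose protein is a basement membrane proteoglycan and the source of the fragment endostatin, had a mean normalized count of 34293 (34145 to 34442), or about 206010 reads. This read count is an estimate from the average step per read, and would be 188663 with the largest step and 228957 with the smallest. *Col18a1* lay at chr10:77052178-77166548 and stood above 99.5% of all genes by count and 98.8% per kilobase. Its close relative *Col15a1*, the source of a similar fragment, had 300 (287 to 314), so that *Col18a1* was 103 times (98.6 to 108) as high per kilobase. *Col8a1* had 14.8 and *Col7a1*, the anchoring fibril chain under the skin, 11.2. *Col8a2* had 7.94, *Col28a1* 1.53, *Col10a1* 0.173 from 1 read, and *Col26a1* was at 0.

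Type VI collagen forms beaded filaments around cells. Its chains *Col6a1* (275), *Col6a3* (177) and *Col6a2* (120) were measurable, as was *Col6a6* (15.4), while *Col6a5* (6.97) and *Col6a4* (1.24) were not. Per kilobase, *Col6a1* was 4.24 times *Col6a3* and 4.35 times *Col6a2* (2.74 with the longest transcripts). *Col6a2* stood at 0.975 of *Col6a3* (0.886 to 1.07) with joined exons and at 1.40 with the longest transcripts, which turns the order. Among the transmembrane collagens, *Col13a1* (171), *Col25a1* (38.1) and *Col23a1* (13.0) were measurable, and *Col17a1*, the hemidesmosome collagen of skin, had 1.47.

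The secreted collagenases, which make the initial cut in fibrillar collagen, were low, and none of the 4 was measurable. *Mmp8*, the collagenase stored by neutrophils, had 5.75 (4.06 to 8.10) and *Mmp13* had 3.73 (2.30 to 5.54), while *Mmp1a* and *Mmp1b* were at 0. Among neutrophil markers, 3 of the 5 with a row were measurable, with *S100a9* at 71.5, *S100a8* at 55.1, *Ngp* at 33.0, *Elane* at 6.96 and *Camp* at 6.52, and *Ly6g* has no row in the table. Both gelatinases, which cut denatured collagen and type IV collagen, were measurable. *Mmp2* had 79.1 (72.1 to 86.5) and *Mmp9* 24.5 (20.7 to 28.8), and *Mmp2* was 3.39 times (2.81 to 4.11) as high per kilobase.

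Of the stromelysins and other secreted Mmps, 5 of 10 were measurable, and 1 of them was far above the others. *Mmp19*, a secreted Mmp that cuts basement membrane proteins, had 2174 (2137 to 2212) at chr10:128790910-128800824. Its exons share 789 bases, 22.3% of their length, with *Tmem198b* on the other strand, which had 205. The strand setting of the authors' counting is not given in the sources used here, so reads of the pair from the shared bases cannot be told apart. *Mmp11* (31.6), *Mmp27* (20.9), *Mmp12* (17.2), the elastase of macrophages, and *Mmp7* (13.2), matrilysin, followed. *Mmp11* shares 155 exon bases with *Chchd10*, a gene at 11404, and *Mmp7* shares 11.5% of its exon bases with the antisense gene *AV064505*, which was at 0. The stromelysins *Mmp3* (3.13) and *Mmp10* (0.727) were not measurable, and neither was *Mmp28* (5.43).

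The membrane-type Mmps are anchored at the cell surface, where *Mmp14* activates proMmp2 together with *Timp2*. *Mmp14* had 1435 (1405 to 1466) and *Mmp15* 1047 (1022 to 1074), and the rest were much lower, with *Mmp23* at 29.6, *Mmp17* at 16.2, *Mmp24* at 1.48, *Mmp25* at 1.15 and *Mmp16* at 0.345. Per kilobase, *Mmp14* was 1.24 times *Mmp15* with joined exons and 2.17 times with the longest transcripts. *Mmp19* was 2.56 times *Mmp14*, or 1.44 times with the longest transcripts. *Mmp14* was 10.3 times *Mmp2*, its substrate (17.3 with the longest transcripts). *Mmp19*, *Mmp14* and *Mmp15* together held 92.2% of the summed level per kilobase of the 23 Mmps, and their order was the same with both lengths.

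Many of the low Mmps are neighbours. On chromosome 9, 10 Mmp genes lie side by side within 427 kb (chr9:7272514-7699585), and 3 of them, *Mmp27*, *Mmp12* and *Mmp7*, were measurable. Their 10 mean normalized counts summed to 64.6. Of the 10 genes, 3 were at 0 (*Mmp1a*, *Mmp1b* and *Mmp20*). *Mmp12* and *Mmp1b* overlap by 157 exon bases on opposite strands. Of the 12 promoter windows listed for these 10 genes, 7 held TGAGTCA in the 250 bases before the start. It was in 1 of the 61 windows of the other members (*Col6a1*) and in 4.46% of all 32851 windows. This motif was added to the search after the sequences had been seen, so its share in the cluster is no independent result. A match to TATAAA was in 7 of the 12, beside 11.5% of the other members' windows and 12.4% of all windows. Of the 12, 6 held both motifs, beside 0.721% of all windows. The genes with TGAGTCA were *Mmp13*, *Mmp12*, *Mmp1b*, *Mmp3*, *Mmp1a*, *Mmp10* and *Mmp7*, and so included measurable genes and genes at 0. *Mmp27*, the highest of the cluster by count, held neither motif in its window, and *Mmp7*, the highest per kilobase (12.4 beside 9.46 for *Mmp27*), held both at 1 of its 2 listed starts.

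**Figure D5:**
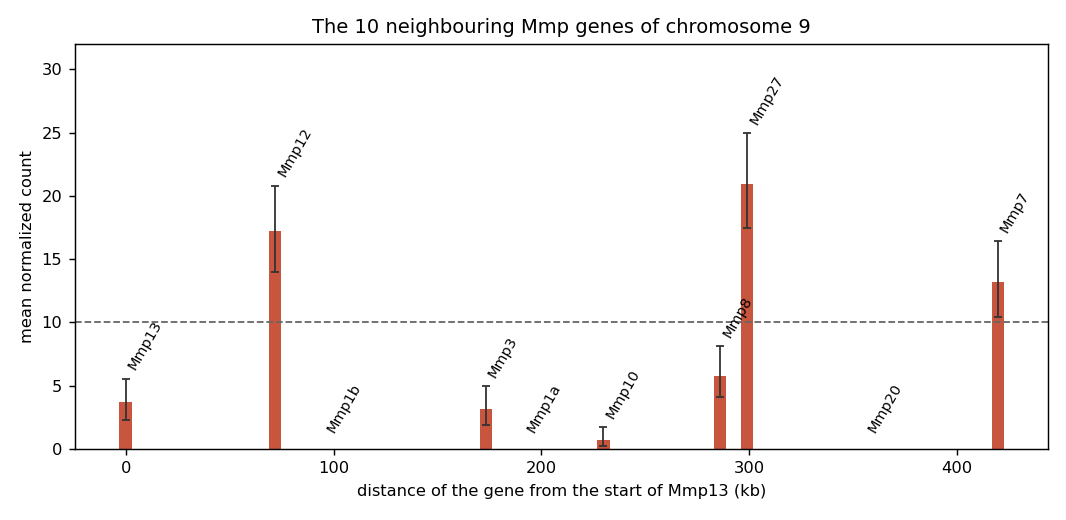
Mean normalized count of the 10 Mmp genes of the chromosome 9 cluster against the distance of each gene from Mmp13 in kb, with bars for 95% counting intervals and a dashed line at 10. Mmp27 (20.9), Mmp12 (17.2) and Mmp7 (13.2) rise above the line and the genes beside them lie between 0 and 5.75.

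The Timps divided into a pair of middle level and a scarce pair. *Timp3*, which binds to the matrix and also blocks Adamts proteases, had 780 (758 to 802), and *Timp2* had 437 (420 to 454). *Timp1*, the inhibitor commonly used as a marker of fibrosis, had 2.09 (1.15 to 3.70) from about 13 reads, and *Timp4* had 1.03 from about 6 reads. *Timp3* and *Timp2* held 98.8% of the summed Timp level per kilobase. *Timp3* stood at 0.854 of *Timp2* (0.814 to 0.896) with joined exons and at 1.40 with the longest transcripts, so their order turns with the length. Exons of *Timp3* share 1733 bases, 21.3% of their length, with *Syn3* on the other strand, which had 66.2. Summed per kilobase, the Mmps were 5.42 times the Timps, and *Timp2* stood at 0.465 of *Mmp14* (0.266 with the longest transcripts).

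Adamts proteases are secreted and bind to the matrix through thrombospondin repeats. Of the 7 members that cut proteoglycans such as versican and aggrecan, 4 were measurable. *Adamts1* had 440 (423 to 457), *Adamts5* 66.2, *Adamts15* 45.7 and *Adamts9* 20.8, while *Adamts4* had 5.17, *Adamts8* 1.55 and *Adamts20* 0. Exons of *Adamts9* share 1381 bases, 9.18% of their length, with *A730049H05Rik* on the other strand, and 424 with *Gm15737*. *Adamts1* and *Adamts5* lie 53059 bases apart on chromosome 16. The procollagen N-proteinases remove the N-propeptide of fibrillar procollagens, and here *Adamts2* had 120 (111 to 129), *Adamts14* 21.8 and *Adamts3* 8.91. *Adamts7*, which cuts the cartilage protein *Comp*, had 294, and *Adamts12* had 2.47. *Adamts13*, the protease that cuts von Willebrand factor and is made by hepatic stellate cells, had 94.4 (86.8 to 102) and stood at 0.231 of *Adamts1* per kilobase. *Adamts10* (166) and *Adamts6* (15.9) were measurable, and *Adamts16*, *Adamts17* and *Adamts19* had between 0.173 and 2.62. *Adamts10* was 9.88 times *Adamts6* per kilobase, or 19.5 times with the longest transcripts.

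Markers of several cell types that could hold these transcripts were measurable in the tissue. All 6 hepatocyte markers lay between 56732 and 2155550 in mean normalized count. All 10 stellate cell markers were measurable, from *Ngfr* at 81.7 to *Dcn* at 4160, and so were all 6 markers of liver endothelium, with *Stab2* highest at 1273, and all 6 of Kupffer cells, with *Cd5l* highest at 2374. All 4 myofibroblast and smooth muscle markers were measurable (*Acta2* at 172), as were 5 of 6 portal fibroblast markers, 5 of 5 cholangiocyte markers and 3 of 4 mesothelial markers. None of the 6 cartilage and bone markers was measurable and 3 were at 0, and among the collagen chains known from cartilage *Col2a1*, *Col9a1*, *Col9a2*, *Col9a3*, *Col10a1* and *Col11a1* lay between 0 and 6.23 while *Col11a2* was measurable at 30.3. In whole liver, fewer cells of a type and less RNA per cell cannot be told apart, and the cell of origin of no member was tested.

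The genes that process, crosslink and bind collagen were followed as well. Of 25 genes of collagen modification and crosslinking, 23 were measurable, with *P4hb*, a subunit of prolyl hydroxylase, at 53612, *Mia3*, which exports procollagen, at 7543, *Ppib* at 5229 and *Bmp1*, the procollagen C-proteinase, at 5113. The crosslinking enzyme *Lox* had 10.8, and its relatives were higher, with *Loxl2* at 69.1, *Loxl3* at 58.3, *Loxl1* at 47.7 and *Loxl4* at 43.6. All 15 basement membrane partners were measurable, from 23.0 to 865, with *Agrn* and *Lamb3* highest. Of 20 other matrix proteins 17 were measurable, with *Vtn* at 73588 and *Fn1* at 53173, both plasma proteins secreted by hepatocytes. Of the 14 genes of the plasminogen system and other Mmp regulators 13 were measurable, with *Mug1*, a protease trap of plasma, at 152660 and *Plg*, the gene of plasminogen, at 99201. The plasminogen activators were low, with *Plau* at 42.7 and *Plat* at 20.5. Of collagen receptors 7 of 9, of Adam proteases 5 of 8 and of Adamts-like genes 5 of 6 were measurable. *P4hb* also serves protein folding at large, and this level does not measure collagen synthesis.

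Promoter windows were found in the RefSeq table for 67 members, and *Mmp19* was not among them. In the 250 bases before the start, the 42 windows of measurable members held a median of 12.5 CG pairs and the 31 windows of members below the threshold a median of 5, beside 15 and 3 for all genes of the table above and below it. A GC box was in 59.5% of the windows of measurable members and 41.9% of those below, beside 55.5% and 23.8% over all genes. A match to TATAAA was in 11.9% and 29.0%, beside 7.01% and 17.9%. These shares are descriptions, with no test.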

How the data were processed

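RNA-seq libraries of liver mRNA were made from 3 WT and 3 *Pai-1*+/- mice. The paper's methods state that the authors used STAR for alignment of single-end reads (mm10) and DESeq2 for normalization and their comparison, within the RNA Express application. Versions, the gene annotation and the strand setting are not given in the sources used here. The signal used is the deposited mean normalized count, counts divided by size factors and averaged by the authors over the libraries of both genotypes. The deposited fold changes, standard errors, Wald statistics and p-values are the authors' own comparison and were not used. The 6 per-sample columns of whole counts were not used either, because their headings match no label, so the planned comparison of genotypes was not made.

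The step that 1 read adds to the mean was read from 879 genes with the lowest recurring values, which gave 1 step for each of the 6 libraries, and counts behind each mean were estimated from the average step. The total mean normalized count of the table was 30045982, and at a mean of 10 the counting error is 12.9%. The recovery of steps and the coverage of intervals were tested on simulated data. Exon lengths and coordinates came from GENCODE M21 (GRCm38), where 23336 of 24421 symbols (95.6%) and all 90 members matched by name. Promoter windows came from RefSeq (GRCm38.p6). Measurable means a mean normalized count of at least 10. Members with at least that level are named by class, with the 3 nearest on each side of it, and those at 0 are counted. Other low members, genes that share exon bases with a member, and list genes beyond the 4 highest or the defining markers were named after their values were seen. Python 3.11.15, pandas 2.3.3, NumPy 2.4.6, SciPy 1.17.1 and Matplotlib 3.10.9 were used. The members and gene lists were chosen with earlier results of these data known. The level of the targeted gene is not reported here.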

Additional observations from a re-analysis of the deposited data

How the results depend on the processing

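The number of measurable members was 51 at a mean normalized count of at least 10, and it was 74 at 1 (82.2%, beside 63.7% of all genes), 60 at 5 (66.7%, beside 56.4%) and 41 at 20 (45.6%, beside 49.7%). The members' share was above that of all genes at 1, 5 and 10 and below it at 20 and 100. The number fell to 24 (26.7%, beside 40.3% of all genes) at 100 and to 30 (33.3%, beside 46.9%) at 10 normalized counts per kilobase. Both thresholds are stricter, and at both the members' share was below that of all genes. Measurable members had a median of 6874 exon bases, beside 4399 for all genes of at least 10. Their median level was 82.5, beside 440, and per kilobase it was 12.8, beside 94.6. Summed levels per kilobase moved with the length used. With the longest transcript the collagens came to 7228 (5775 with joined exons), the Mmps to 1392 (1139), the Timps to 285 (210) and the Adamts genes to 250 (204), since a shorter length raises the values. Without the highest member of each family they came to 891, 524, 98.3 and 121. With measurable members alone the sums stayed within the counting intervals. Among the 24 ratios between members, the longest transcript turned *Timp3* to *Timp2* (1.40) and *Col6a2* to *Col6a3* (1.40). Most of the other ratios kept their direction but moved outside their counting intervals. Examples are *Col4a1* to *Col4a2* (1.44), *Col5a1* to *Col5a2* (2.57) and *Col5a3* to *Col5a1* (8.10). A minority stayed inside, such as *Col18a1* to *Col15a1* (106).

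No paired analysis was possible because the count columns carry no replicate numbers that match the labels. For the same reason the other normalization, the filter on low counts, the replicate block and leaving out replicates were not run for the genotypes. Depth limits the low members, since 16 members above 0 rest on fewer than 10 reads in all.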
